A study of Mus musculus with 36 samples.

Results

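Hypoxia-inducible and glycolysis genes were followed through 36 RNA-sequencing libraries of mouse dendritic cells. They comprised 37 of the 24127 gene rows of the deposited table, found by symbol. They were chosen by symbol with measured values in view: the levels over the 12 groups, the responses to treatment and the change of mock cells with time. Those differences are therefore described here without a test. All 37 passed the filter on low values, a mean of at least 10 normalized counts over all libraries, as did 11853 genes in all. By role they were 3 genes of oxygen sensing, 7 mitochondrial and stress targets, 2 secreted factors, 8 other hypoxia targets, 14 glycolysis enzymes and 3 regulators of glycolysis.

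The cells were grown from bone marrow of C57BL/6 mice with GM-CSF and selected for CD11c, an integrin of dendritic cells. They came from mice with the genotype Dhx58-/- (here KO), labelled as lacking the RNA-binding helicase LGP2, or from wild-type (WT) mice. Cells received 20 ng of PAMP RNA by transfection, the poly-U/C RNA of hepatitis C virus and an agonist of the RNA sensor RIG-I, or were mock controls that the labels also call untreated. The 12 groups were PAMP RNA and mock cells of KO mice and PAMP RNA and mock cells of WT mice, each collected at 1, 3 and 6 h with 3 libraries. Whether an empty transfection was part of the mock treatment, and how many mice gave the cells of a group, is not stated in the labels. A difference between PAMP RNA and mock cells may therefore include a part of the transfection itself.

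Hypoxia-inducible factor (HIF) is a pair of proteins, an oxygen-labile alpha subunit such as that encoded by Hif1a and a stable beta subunit, Arnt. In the presence of oxygen, prolyl hydroxylases (Egln1, Egln2 and Egln3) mark the alpha subunit for destruction by the VHL ubiquitin ligase, so that HIF activity is set mainly at the level of protein. When oxygen is low the alpha subunit persists and binds short promoter elements with the core ACGTG or GCGTG. Its targets include Egln1 and Egln3 themselves, enzymes of glycolysis, mitochondrial proteins and the vessel growth factor Vegfa. In dendritic cells and macrophages glycolysis is also known to change with activation by microbial ligands.

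Promoter windows from RefSeq (GRCm38.p6), running from 250 bases before to 50 after a gene's start, were matched by symbol or synonym for 34 of the 37 members, all but Zfp395, Ndrg1 and Bnip3l. The 34 genes had 52 windows of 300 bases. ACGTG, on either strand, was in 27 of the 52 windows (51.9%), against 19.6% of all 32851 windows. GCGTG was in 32 (61.5%), against 32.4% of all windows. At least 1 of the motifs was in 42 (80.8%), against 43.8%. These shares were not tested, and a match is a run of letters, not a shown binding site. The background windows belong to 27025 genes, not only to those past the filter on low values. Overlapping windows of the same gene, as for Ak4 and Eno1, were counted separately. A CACGTG counts on both strands as 1 match of each, and the motifs overlap in CACGCGTG. The windows shown belong to 4 members with a large difference between PAMP RNA and mock cells, to Pgk1 as a glycolysis enzyme, and to Pfkp as a member that differed in the opposite direction. Capitals mark ACGTG or GCGTG on either strand.
Egln3 (chr12:54203825-54204124, minus strand): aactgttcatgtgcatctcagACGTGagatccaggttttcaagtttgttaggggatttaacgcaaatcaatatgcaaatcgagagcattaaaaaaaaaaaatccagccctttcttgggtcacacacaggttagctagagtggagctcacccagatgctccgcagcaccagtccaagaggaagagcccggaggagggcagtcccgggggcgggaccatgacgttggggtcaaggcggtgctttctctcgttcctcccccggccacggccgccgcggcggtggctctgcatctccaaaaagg
Ankrd37 (chr8:45999801-46000100, minus strand): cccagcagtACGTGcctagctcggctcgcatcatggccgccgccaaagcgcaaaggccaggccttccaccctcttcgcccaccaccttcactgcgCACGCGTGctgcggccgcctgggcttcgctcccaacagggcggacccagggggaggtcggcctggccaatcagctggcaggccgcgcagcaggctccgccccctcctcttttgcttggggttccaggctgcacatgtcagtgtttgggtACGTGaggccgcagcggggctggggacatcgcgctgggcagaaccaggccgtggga
Bnip3 (chr7:138909457-138909756, minus strand): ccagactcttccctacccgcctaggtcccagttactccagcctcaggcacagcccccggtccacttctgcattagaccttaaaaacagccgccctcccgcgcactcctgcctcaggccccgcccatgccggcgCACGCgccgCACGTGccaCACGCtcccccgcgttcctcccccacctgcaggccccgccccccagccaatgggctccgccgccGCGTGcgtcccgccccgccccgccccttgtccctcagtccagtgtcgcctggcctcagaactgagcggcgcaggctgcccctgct
Ddit4 (chr10:59951721-59952020, minus strand): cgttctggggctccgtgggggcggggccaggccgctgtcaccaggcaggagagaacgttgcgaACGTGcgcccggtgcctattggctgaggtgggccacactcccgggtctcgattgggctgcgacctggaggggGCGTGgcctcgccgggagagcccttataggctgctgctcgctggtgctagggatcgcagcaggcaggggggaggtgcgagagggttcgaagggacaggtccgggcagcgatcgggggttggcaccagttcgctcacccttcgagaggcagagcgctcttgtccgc
Pgk1 (chrX:106186850-106187149, plus strand): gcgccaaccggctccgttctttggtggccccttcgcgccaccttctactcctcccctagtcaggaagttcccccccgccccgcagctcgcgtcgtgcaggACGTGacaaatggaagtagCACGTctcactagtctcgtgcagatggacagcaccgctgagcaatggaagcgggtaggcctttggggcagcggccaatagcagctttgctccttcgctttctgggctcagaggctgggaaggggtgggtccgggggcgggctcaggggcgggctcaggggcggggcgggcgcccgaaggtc
Pfkp (chr13:6648722-6649021, minus strand): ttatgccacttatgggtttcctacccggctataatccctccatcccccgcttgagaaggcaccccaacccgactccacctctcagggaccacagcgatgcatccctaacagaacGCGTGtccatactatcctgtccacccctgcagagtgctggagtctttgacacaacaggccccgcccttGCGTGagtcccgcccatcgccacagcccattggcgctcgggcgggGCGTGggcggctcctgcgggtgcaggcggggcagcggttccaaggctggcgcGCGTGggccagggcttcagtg
Egln3, Ddit4, Ankrd37, Bnip3 and Pgk1 hold at least 1 ACGTG in this window, while the Pfkp window holds only GCGTG, at 4 positions.

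The libraries held 4740909 to 14255730 reads in genes. Dhx58, the gene targeted in KO mice, still had reads in the libraries labelled KO: at 6 h its normalized count was 807, 985 and 1012 in KO PAMP RNA cells and 808, 725 and 634 in KO mock cells. The WT libraries held 3066, 2941 and 3010 in PAMP RNA cells and 362, 287 and 273 in mock cells. The table has 1 value for the whole gene, so these values do not check which part was deleted. Markers of dendritic and myeloid cells summed to 55572 to 95886 normalized counts per library. Those of neutrophils, T cells, B cells, NK cells, erythroid and stromal cells summed to at most 264, and those of mast cells and basophils to 14.3 to 224. Gzma, Cd3g and Hbb-bs had no read in any library. Some of these sums moved with the comparisons below. The sum of dendritic and myeloid markers was lower in every KO library than in every WT library of the same treatment and time. In mock cells it was 55572 to 57873 in KO and 69887 to 74275 in WT cells at 1 h. At 6 h it was 69806 to 70626 and 83320 to 86588. With PAMP RNA at 6 h it was 81654 to 83712 in KO and 89763 to 95886 in WT cells. At 3 and 6 h it was higher with PAMP RNA than in mock cells of each genotype, without overlap. The 4 T cell markers summed to 19.3 to 46.2 in KO PAMP RNA cells and 1.70 to 6.29 in KO mock cells at 3 h, and to 17.0 to 28.7 with PAMP RNA and 3.53 to 8.71 in mock cells of WT mice. At 6 h they summed to 30.9 to 43.9 with PAMP RNA and 1.69 to 6.17 in mock KO cells, and to 29.6 to 38.9 with PAMP RNA and 1.79 to 5.59 in mock WT cells. The 4 mast cell and basophil markers at 6 h summed to 14.3 to 22.9 with PAMP RNA and 51.8 to 62.6 in mock KO cells, and to 36.6 to 43.9 with PAMP RNA and 88.1 to 120 in mock WT cells. The 7 neutrophil markers found summed to 198 to 223 in KO and 140 to 158 in WT PAMP RNA cells at 6 h. Their part in the results was not tested. In 2 libraries the members lay furthest below their group mean. In replicate 1 of WT mock cells at 6 h the members' median deviation from the group mean was -0.26 on the log2 scale, and in replicate 1 of WT mock cells at 3 h it was -0.12. For the results below that turn on these 2, values without the library follow. Replicate 3 of WT PAMP RNA cells at 6 h was close behind, at -0.10. The libraries carried no strand information, and 17 members overlap a gene on the other strand, among them Ankrd37, Bnip3, Hif1a, Pfkp, Zfp395 and Ndrg1. Pseudogenes named for Aldoa, Gapdh, Pgk1, Pgam1, Ldha and Bnip3l are annotated, so reads of these members are uncertain.

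In mock cells almost every member was at a higher level at 3 h than at 1 h. Values are normalized counts, the reads of a gene divided by a size factor for its library, and differences are on the scale log2(normalized count + 1) with their standard error (SE). In KO mock cells all 3 libraries at 3 h lay above all 3 at 1 h for 35 of the 37 members, against a background of 25.7% of all genes tested. In WT mock cells the count was also 35, against 24.4%. Hif1a and Pfkp were the other two, wholly lower at 3 h in both genotypes, against backgrounds of 27.3% in KO and 25.5% in WT cells. The members' median difference was 0.81 in KO and 0.91 in WT cells, beside -0.01 and 0.00 over all genes. Without replicate 1 of the WT mock cells at 3 h the WT count was again 35, against 29.2%, and the median 0.96. In RNA from a whole culture, fewer cells of a type and less RNA per cell cannot be told apart.

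The largest difference between 1 and 3 h was that of Egln3, a prolyl hydroxylase that is itself a HIF target, transcribed from the minus strand of chromosome 12 (54178981 to 54203860, GRCm38). KO mock libraries held 42.2, 50.8 and 54.6 normalized counts at 1 h, then 1545, 1427 and 1554 at 3 h and lastly 2128, 2257 and 2146 at 6 h. WT mock libraries held 60.0, 53.0 and 61.1 at 1 h, then 977, 1544 and 1643 at 3 h and lastly 836, 1928 and 2152 at 6 h. The 3 times did not overlap in KO cells, whereas in WT cells replicate 1 at 6 h lay below all 3 libraries at 3 h. The difference of 3 from 1 h was 4.92 ± 0.19 in KO and 4.52 ± 0.19 in WT cells (log2 ± SE, n = 3 per group), and 4.76 in WT cells without the lowest library at 3 h. Egln1, the main oxygen sensor of the family on chromosome 8, was 1.36 ± 0.09 and 1.22 ± 0.09 higher. Hif1a itself, on chromosome 12 from 73901375 to 73947530, went the other way. KO mock libraries held 5040, 4996 and 5167 Hif1a counts at 1 h, then 2476, 2480 and 2477 at 3 h and lastly 2299, 2287 and 2233 at 6 h. WT mock libraries held 5138, 5326 and 5708 at 1 h, then 2613, 2755 and 2751 at 3 h and lastly 2450, 2407 and 2366 at 6 h. The times did not overlap in either genotype, and the difference of 3 from 1 h was -1.03 ± 0.05 in KO and -0.99 ± 0.05 in WT cells.

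Among the mitochondrial and stress targets all 7 were wholly higher at 3 than at 1 h in both genotypes. Ak4, an adenylate kinase of the mitochondrial matrix, was 3.00 ± 0.12 higher in KO and 2.69 ± 0.12 higher in WT mock cells. Bnip3, a receptor for the removal of mitochondria, was 2.54 ± 0.12 and 2.33 ± 0.12 higher. Ddit4, an inhibitor of the growth kinase complex mTORC1, was 1.49 ± 0.23 and 1.21 ± 0.23 higher. Of the other targets, Ankrd37, an ankyrin repeat protein, was 2.90 ± 0.24 higher in KO and 2.55 ± 0.24 in WT cells, and Ero1l, an oxidase of the endoplasmic reticulum, 2.24 ± 0.13 and 2.07 ± 0.13. P4ha2, a collagen prolyl hydroxylase subunit, had few reads at 1 h, 4 over the 3 KO and 13 over the 3 WT mock libraries, and 121 and 164 at 3 h. The 14 glycolysis enzymes had smaller differences, with a median of 0.40 (from -0.21 to 1.22) in KO and 0.50 (from -0.18 to 1.24) in WT cells. The 20 members that are neither enzymes nor regulators of glycolysis had medians of 1.47 in KO and 1.22 in WT cells.

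Most members were at a still higher level in mock cells at 6 h than at 3 h. In KO cells 34 members were wholly higher at 6 than at 3 h (27.8% of all genes) and 1, Hif1a, was wholly lower (26.5%), with a median of 0.53. In WT cells 21 were wholly higher (27.4%) and 1, again Hif1a, wholly lower (26.7%), with a median of 0.50. Without replicate 1 at 6 h 33 members were wholly higher in WT cells, against 31.9% of all genes, with a median of 0.61. Without replicate 1 at 3 h the count was 21, against 31.6%, with a median of 0.38. The 14 glycolysis enzymes had medians of 0.56 in KO and 0.55 in WT cells, above their medians between 1 and 3 h. The 20 members outside glycolysis had medians of 0.51 in KO and 0.17 in WT cells, below theirs between 1 and 3 h. This WT median includes replicate 1 at 6 h, in which the members' median deviation was -0.26, and is not given here without it. Pdk1, a kinase that inhibits pyruvate dehydrogenase, was 1.06 ± 0.08 higher in KO and 0.97 ± 0.08 higher in WT cells. Ndrg1, a stress-responsive protein, was 1.10 ± 0.10 and 0.93 ± 0.10 higher, and Hk1, a hexokinase, 1.06 ± 0.08 and 1.03 ± 0.08. In the enzymes of glycolysis, 13 of 14 were wholly higher at 6 than at 3 h in each genotype, the exception being Hk2.

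**Figure D1:**
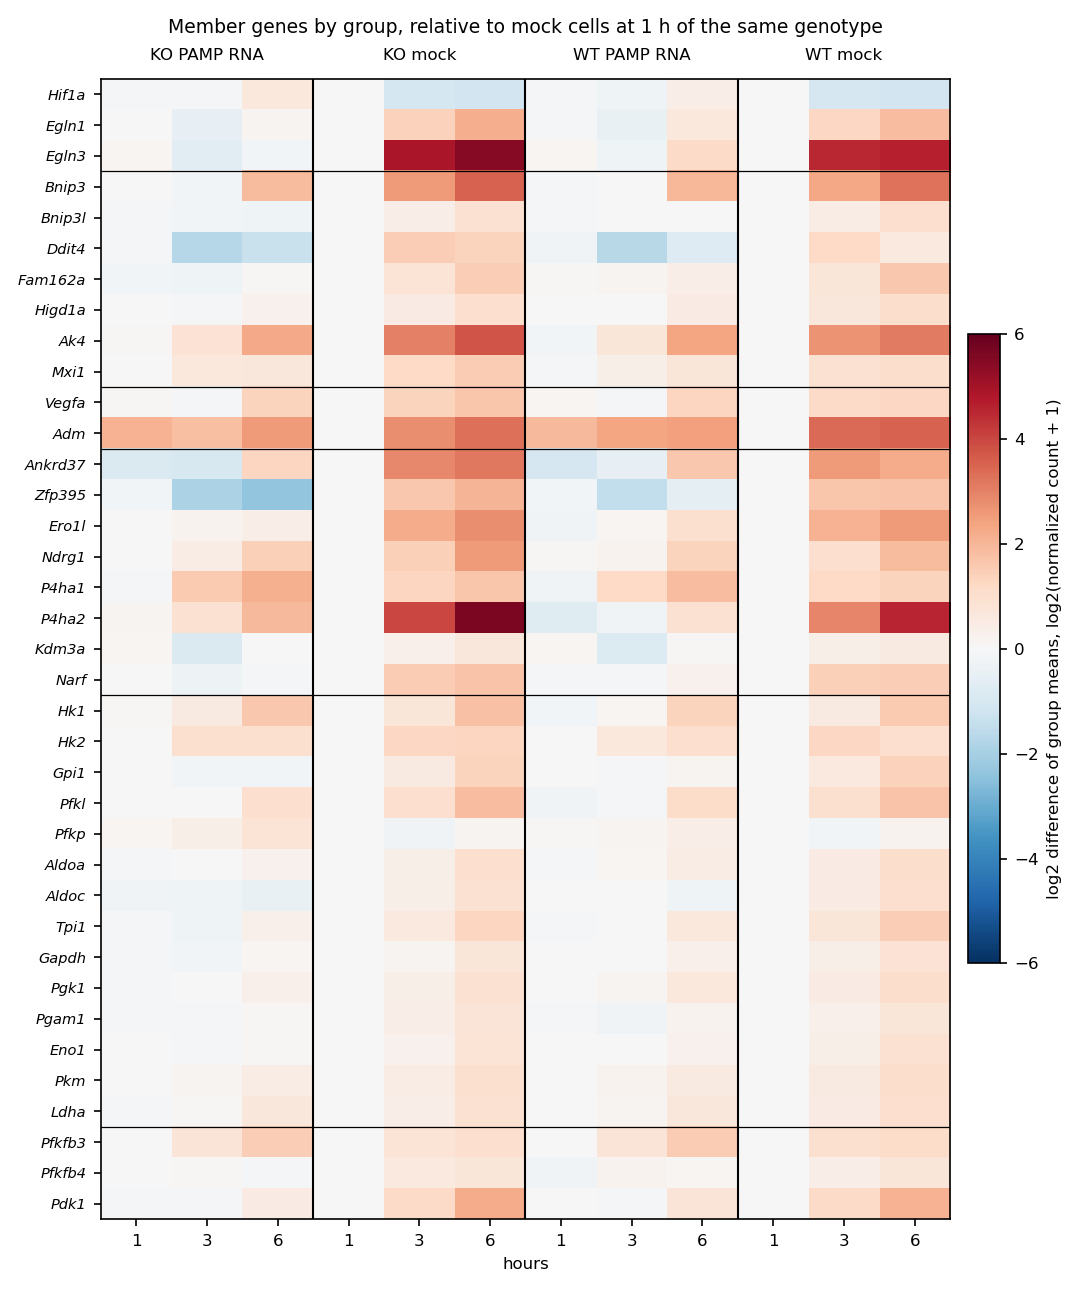
Each row is a member gene and each column a group at 1, 3 or 6 h; colour is the difference of the group's mean log2(normalized count + 1) from mock cells at 1 h of the same genotype, and lines divide the roles. Most rows turn red in the mock columns at 3 and 6 h and are paler, in red and blue, in the PAMP RNA columns at 3 h, while Hif1a turns blue in the mock columns.

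With PAMP RNA at 1 h few members stood apart from mock cells. In KO cells 2 were wholly higher (7.19% of all genes) and 5 wholly lower (9.26%), and in WT cells 1 was wholly higher (5.21%) and 8 wholly lower (6.99%). The medians were -0.02 in KO and -0.06 in WT cells. Adm, the vasodilator peptide adrenomedullin, was the member furthest above mock cells at 1 h, on few reads. KO PAMP RNA libraries held 16.5, 18.9 and 5.88 Adm counts, against 2.48, 2.58 and 1.61 in KO mock cells. WT PAMP RNA libraries held 8.99, 7.88 and 9.36, against 0.896, 1.93 and 1.88 in WT mock cells. The groups did not overlap in either genotype, although the mock values stand for 8 reads over the 3 KO and 5 reads over the 3 WT libraries. Ankrd37 was already lower at 1 h, by -0.86 ± 0.24 in KO and -1.03 ± 0.24 in WT cells.

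At 3 h nearly all members were lower with PAMP RNA than in mock cells of the same time. In KO cells 33 of 37 were wholly lower (29.4% of all genes) and 3 wholly higher (25.4%), and in WT cells 34 were wholly lower (29.3%) and 2 wholly higher (24.3%). The median was -0.72 in KO and -0.67 in WT cells, against -0.03 over all genes in both, and the WT median was -0.70 without replicate 1 of the mock cells, again with 34 wholly lower (33.5%). The exceptions were Hif1a and Pfkp, a phosphofructokinase isoform, wholly higher in both genotypes, and P4ha1, a collagen prolyl hydroxylase subunit, wholly higher in KO cells. The same mock libraries enter these differences and the changes of mock cells with time, so neither is independent of the other.

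Of the oxygen sensors, Egln3 had the largest difference from mock cells. At 3 h KO PAMP RNA libraries held 28.4, 29.5 and 34.5 normalized counts, against 1545, 1427 and 1554 in KO mock cells. WT PAMP RNA libraries held 47.1, 55.7 and 44.5, against 977, 1544 and 1643 in WT mock cells. No PAMP RNA library came near a mock library at 3 h, and all lay close to or below the mock values at 1 h. The difference was -5.57 ± 0.19 in KO and -4.76 ± 0.19 in WT cells. Egln1 counts at 3 h were 471, 429 and 359 with PAMP RNA and 1409, 1623 and 1508 in mock KO cells, and 483, 474 and 463 with PAMP RNA and 1331, 1537 and 1595 in mock WT cells. The groups did not overlap, and Egln1 differed by -1.85 ± 0.09 in KO and -1.65 ± 0.09 in WT cells. Hif1a counts were 4707, 4889 and 4941 with PAMP RNA and 2476, 2480 and 2477 in mock KO cells. In WT cells they were 4519, 4431 and 4605 with PAMP RNA and 2613, 2755 and 2751 in mock cells. Hif1a was thus higher in every PAMP RNA library, by 0.97 ± 0.05 in KO and 0.74 ± 0.05 in WT cells. The mock libraries at 3 h lay below their own level at 1 h.

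All 7 mitochondrial and stress targets were wholly lower with PAMP RNA at 3 h in both genotypes. Bnip3 counts were 203, 220 and 198 with PAMP RNA and 1394, 1312 and 1365 in mock KO cells. In WT cells they were 255, 262 and 252 with PAMP RNA and 1002, 1408 and 1520 in mock cells. The groups lay far apart, and the PAMP RNA libraries were near the 219 to 261 counts of all libraries at 1 h. The difference was -2.71 ± 0.12 in KO and -2.33 ± 0.12 in WT cells. Ddit4 counts were 42.6, 40.8 and 44.3 with PAMP RNA and 373, 397 and 449 in mock KO cells. In WT cells they were 48.0, 52.3 and 47.7 with PAMP RNA and 324, 391 and 402 in mock cells. Here the PAMP RNA libraries lay below every library at 1 h as well, and the difference from mock cells at 3 h was -3.22 ± 0.23 in KO and -2.88 ± 0.23 in WT cells.

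The secreted factors Vegfa and Adm were both wholly lower with PAMP RNA at 3 h. Vegfa counts were 526, 564 and 506 with PAMP RNA and 1517, 1397 and 1487 in mock KO cells. In WT cells they were 607, 654 and 656 with PAMP RNA and 1344, 1546 and 1702 in mock cells. The groups did not overlap, with differences of -1.46 ± 0.12 in KO and -1.25 ± 0.12 in WT cells. Of the other 8 targets 7 were wholly lower in each genotype. Zfp395, a zinc finger protein, differed by -3.53 ± 0.17 in KO and -3.15 ± 0.17 in WT cells. Ankrd37 counts were 28.4, 23.8 and 21.7 with PAMP RNA and 415, 338 and 362 in mock KO cells. In WT cells they were 39.0, 60.7 and 26.5 with PAMP RNA and 255, 371 and 412 in mock cells. Every PAMP RNA library was below every mock library, by -3.86 ± 0.24 in KO and -3.06 ± 0.24 in WT cells.

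Glycolysis enzymes differed in the same direction by less. At 3 h 13 of the 14 were wholly lower with PAMP RNA in each genotype, with medians of -0.36 in KO (from -1.02 to 0.57) and -0.40 in WT cells (from -1.04 to 0.34). Ldha, which makes lactate from pyruvate, had 7488, 7037 and 6792 counts with PAMP RNA and 9095, 8452 and 9542 in mock KO cells. In WT cells it had 7260, 7345 and 7314 with PAMP RNA and 8575, 9436 and 9437 in mock cells. The groups did not overlap, and Ldha differed by -0.35 in KO and -0.32 in WT cells. Pgk1, the first enzyme of the pathway to yield ATP, had 4014, 4035 and 4072 counts with PAMP RNA and 5313, 4974 and 5427 in mock KO cells. In WT cells it had 4570, 4616 and 4496 with PAMP RNA and 5279, 5984 and 5919 in mock cells. Again the groups were apart, by -0.37 in KO and -0.33 in WT cells. Pfkl, the liver-type phosphofructokinase, had the largest difference among the enzymes, -1.02 in KO and -1.04 in WT cells, where its paralogue Pfkp was 0.57 and 0.34 higher. Of the regulators, Pdk1 differed by -1.22 in KO and -1.24 in WT cells. Pfkfb3, which makes the activator of phosphofructokinase, had -0.03 in KO cells, with overlapping libraries, and -0.18 in WT cells.

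**Figure D2:**
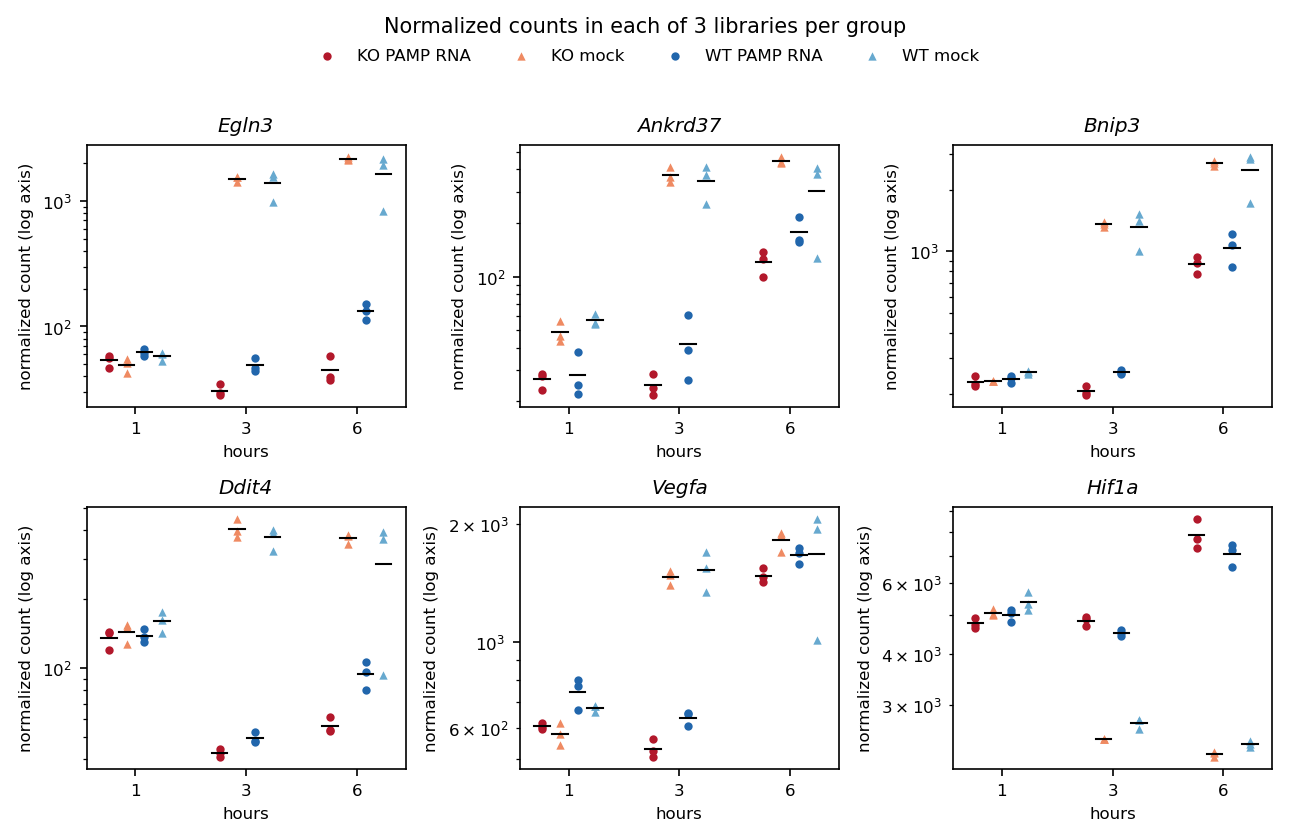
Normalized counts (log axis) in each library of 6 members by hour, with circles for PAMP RNA and triangles for mock cells, red for KO and blue for WT, and a black bar at the mean of 3 libraries. At 3 h the PAMP RNA libraries lie below the mock libraries for the first 5 genes and above them for Hif1a, and 1 WT mock library at 6 h lies below the other two of its group except for Hif1a.

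At 6 h most members were still lower with PAMP RNA than in mock cells. In KO cells 32 were wholly lower (36.8% of all genes) and 4 wholly higher (36.2%), and in WT cells 25 were wholly lower (33.7%) and 4 wholly higher (33.4%). The median was -0.84 in KO and -0.62 in WT cells, and -0.79 in WT cells without replicate 1 of the mock group, where 33 were wholly lower (36.9%). The 4 that were higher were the same in both genotypes, Hif1a, P4ha1, Pfkfb3 and Pfkp. Hif1a had 8630, 7680 and 7296 counts with PAMP RNA and 2299, 2287 and 2233 in mock KO cells. In WT cells it had 7459, 6557 and 7237 with PAMP RNA and 2450, 2407 and 2366 in mock cells. All PAMP RNA libraries were far above the mock libraries, by 1.79 ± 0.05 in KO and 1.55 ± 0.05 in WT cells. The direction of Hif1a held under each scaling tried, while for WT cells that of Pfkfb3 (0.44) was -0.01 under quantile normalization and that of Pfkp (0.21) was -0.15 under quantile normalization and -0.16 with libraries scaled to equal total reads. For KO cells Pfkfb3 (0.48) and P4ha1 (0.47) were at -0.01 and -0.02 when scaled to equal totals, a scaling that moved the median over all genes at 6 h to -0.51 in KO and -0.39 in WT cells. Relative to that shift the members' median was -0.81 in KO and -0.60 in WT cells.

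Egln3 again had the largest difference in KO cells at 6 h, with 39.9, 37.2 and 58.2 counts with PAMP RNA against 2128, 2257 and 2146 in mock cells. WT cells had 151, 134 and 113 with PAMP RNA against 836, 1928 and 2152 in mock cells. The groups did not overlap, and the difference was -5.59 ± 0.19 in KO and -3.51 ± 0.19 in WT cells, or -3.94 in WT cells without the low mock library. Ddit4 had 61.2, 53.0 and 53.4 counts with PAMP RNA against 350, 383 and 379 in mock KO cells, a difference of -2.71 ± 0.23. In WT cells it had 106, 80.6 and 95.8 with PAMP RNA against 93.1, 368 and 392 in mock cells, so that the low mock library lay among the PAMP RNA libraries. Its WT difference was -1.34 ± 0.23, and -2.01 without that library. Ankrd37 had 215, 160 and 157 counts with PAMP RNA against 128, 407 and 378 in WT mock cells, so that the low mock library lay below all 3 PAMP RNA libraries. Its WT difference was -0.62 ± 0.24, and -1.16 without that library. KO cells had 137, 125 and 99.8 Ankrd37 counts with PAMP RNA against 471, 432 and 441 in mock cells, groups that were well apart by -1.90 ± 0.24.

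Vegfa was close to mock cells at 6 h. KO PAMP RNA libraries held 1542, 1427 and 1465 counts, against 1899, 1883 and 1695 in KO mock cells, a difference of -0.30 ± 0.12 without overlap. WT PAMP RNA libraries held 1743, 1686 and 1587, against 1013, 1948 and 2067 in WT mock cells. These overlapped, with a difference of 0.06 ± 0.12, and -0.26 without the low mock library. Bnip3 stayed lower, with 936, 776 and 875 counts with PAMP RNA against 2715, 2776 and 2613 in KO mock cells. In WT cells it had 1215, 1079 and 836 with PAMP RNA against 1724, 2842 and 2902 in mock cells. Neither pair of groups overlapped, at -1.65 ± 0.12 in KO and -1.23 ± 0.12 in WT cells, or -1.48 in WT cells without the low mock library. The glycolysis enzymes had medians of -0.66 in KO and -0.53 in WT cells, larger than their medians at 3 h, and 12 of 14 in KO and 11 of 14 in WT cells were wholly lower. Gpi1, glucose phosphate isomerase, had the lowest difference of the enzymes in KO cells at -1.50 and Aldoc, an aldolase, in WT cells at -1.28. Hk2, an inducible hexokinase, had 1736, 1595 and 1735 counts with PAMP RNA against 2065, 2145 and 2187 in KO mock cells. In WT cells it had 1685, 1945 and 1548 with PAMP RNA against 1094, 2069 and 2167 in mock cells. Only the KO groups were apart, by -0.34, while the WT difference was 0.02, and -0.30 without the low mock library.

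**Figure D3:**
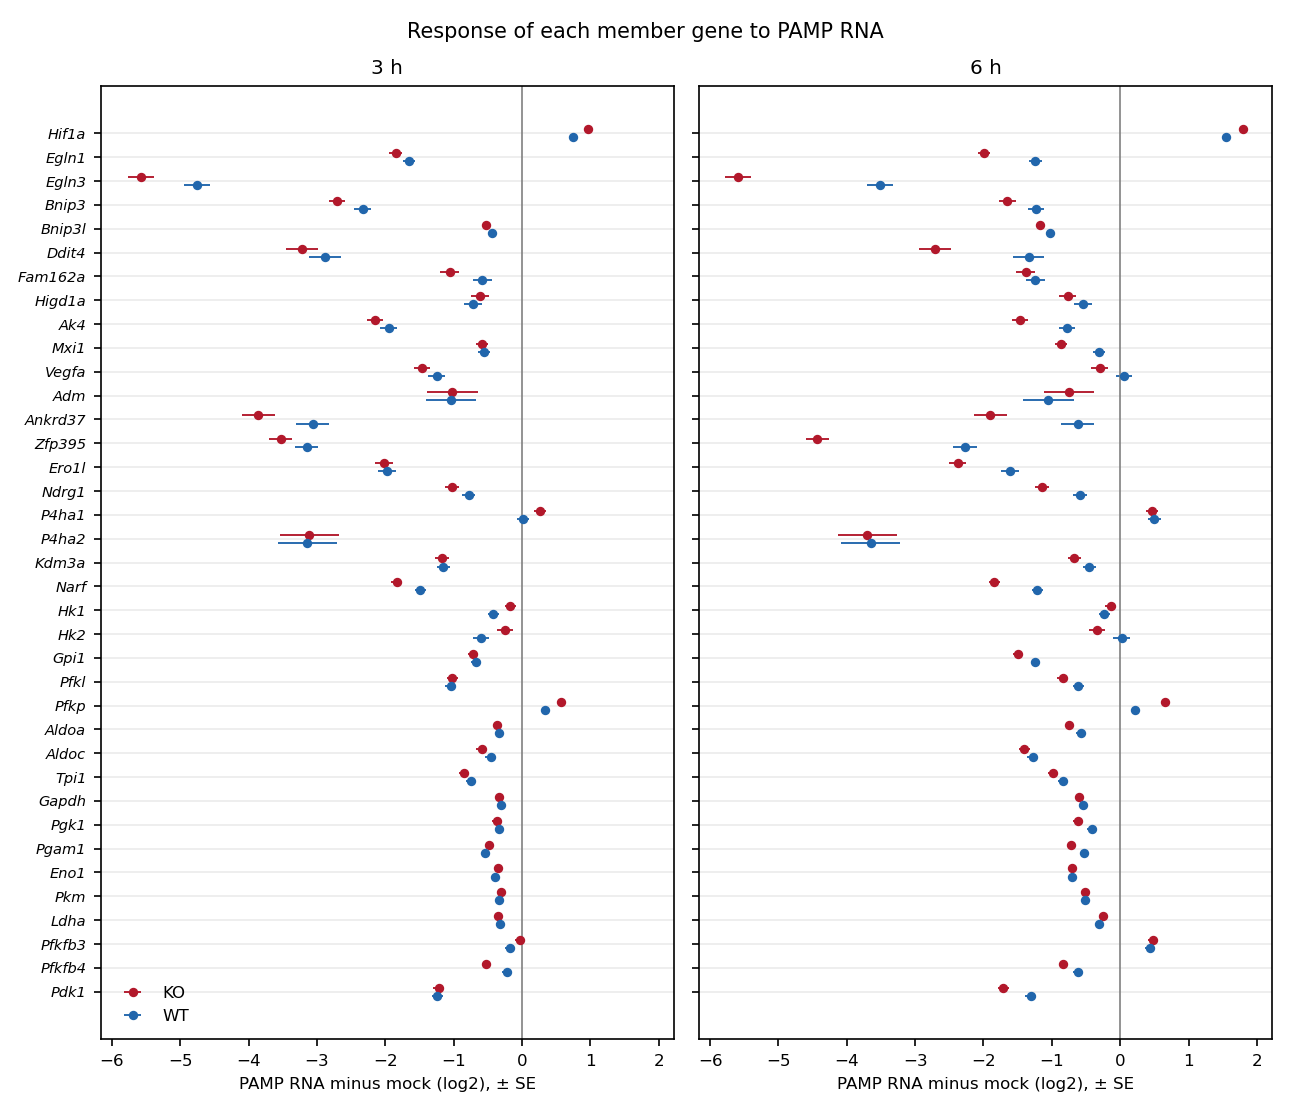
Difference of PAMP RNA from mock cells at the same time for each member at 3 and 6 h, in KO and WT cells, as log2 with bars for the SE (n = 3 libraries per group). Egln3 lies furthest to the left in KO cells at both times, at -5.57 and -5.59, and Hif1a lies to the right at both times in both genotypes.

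Since the mock cells themselves differed with time, each group was also set against mock cells of its own genotype at 1 h. This comparison was chosen after seeing the data and was not tested, and it shares the 1 h libraries throughout. In PAMP RNA cells at 3 h the members went both ways. In KO cells 12 were wholly higher, 13 wholly lower and 12 overlapped, with a median of -0.06. The WT counts were 14, 7 and 16, with a median of 0.00. Over all genes 28.7% were wholly higher and 32.9% wholly lower in KO cells, and 28.8% and 30.9% in WT cells. By 6 h 23 members in KO and 29 in WT PAMP RNA cells were wholly above mock cells at 1 h, against backgrounds of 36.5% and 33.2%. Their medians were 0.39 in KO and 0.63 in WT cells. Mock cells at 6 h had 36 members wholly higher in KO (33.5%) and 35 in WT cells (30.7%), with medians of 1.36 and 1.24.

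The levels of PAMP RNA cells at the 3 times were among those in view when the members were chosen, so their change over time is given as a description. Counts are of members past limma's threshold, an adjusted p under 0.05. From 1 to 3 h, 9 members were higher and 8 lower in KO cells, against 28.3% and 29.7% of all genes. In WT cells 11 were higher and 5 lower, against 27.4% and 27.5%. This balance depended on the scaling, for the members and for all 11853 genes. Under quantile normalization 7 members were higher and 18 lower in KO cells, beside 2919 and 4365 of all genes. In WT cells 7 were higher and 14 lower, beside 2814 and 4015. With libraries scaled to equal total reads 6 were higher and 24 lower in KO cells, beside 1952 and 6597 of all genes. In WT cells 6 were higher and 13 lower, beside 1979 and 5560. The median over all genes was then -0.29 in KO and -0.21 in WT cells. P4ha1 was higher at 3 than at 1 h by 1.61 ± 0.09 in KO and 1.40 ± 0.09 in WT cells. Zfp395 differed by -1.73 ± 0.17 in KO and -1.30 ± 0.17 in WT cells, and Ddit4 by -1.64 ± 0.23 and -1.47 ± 0.23. Kdm3a, a histone demethylase, differed by -0.99 ± 0.10 and -0.90 ± 0.10. For these 4 the libraries of 1 and 3 h did not overlap in either genotype. From 3 to 6 h, 27 members were higher and 3 lower in KO cells, against 32.1% and 27.6% of all genes, and 32 were higher and 1 lower in WT cells, against 29.5% and 26.5%. Ankrd37 was higher at 6 than at 3 h by 2.24 ± 0.24 in KO and 2.11 ± 0.24 in WT cells, and Bnip3 by 2.05 ± 0.12 and 2.00 ± 0.12. Vegfa was higher by 1.47 ± 0.12 in KO and 1.39 ± 0.12 in WT cells, and Hk1 by 1.09 ± 0.08 and 1.21 ± 0.08. For each of these 4 all 3 libraries at 6 h were above all 3 at 3 h. Zfp395 went different ways, -0.47 ± 0.17 in KO and 0.91 ± 0.17 in WT cells, without overlap between the times in either. Its KO difference was not past the threshold with edgeR (adjusted p = 0.238), DESeq2 (adjusted p = 0.168) or quantile normalization (-0.35, adjusted p = 0.0783). Nor was it by limma without KO PAMP RNA replicate 3 at 3 h (-0.34, adjusted p = 0.11) or at 6 h (-0.41, adjusted p = 0.0592).

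Whether the response to PAMP RNA differed between genotypes was tested as KO response minus WT response. These comparisons between genotypes use levels that were in view when the members were chosen, so their calls are no independent support for the choice. The p-values measure the spread between cultures, and the number of mice is not stated. Genotype therefore cannot be told apart from animal or cell preparation. At 1 h limma called 0 members at an adjusted p under 0.05, against 0.118% of all genes, and edgeR and DESeq2 also called 0. At an unadjusted p under 0.05 there were 2 members by limma, 1 by edgeR and 1 by DESeq2. At 3 h limma called 0, against 3.14% of all genes, with 10 members at an unadjusted p under 0.05. edgeR called 0, with 8 at an unadjusted p under 0.05, and DESeq2 called 1, Hif1a, with 7.

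At 6 h the KO response was lower than the WT response for 11 members, against 3.81% of all genes, and higher for 2, against 6.67%. Lower refers to the signed log2 response. Where both responses were negative, the KO level lay further below mock cells, as for Egln3 (-5.59 in KO and -3.51 in WT cells) and Zfp395 (-4.43 and -2.27). The median over members was -0.21, beside 0.02 over all genes, and -0.06 without replicate 1 of WT mock cells. The 11 included both oxygen sensors. The difference for Egln3 was -2.07 ± 0.27 (adjusted p = 2.98e-07), and that for Egln1 was -0.75 ± 0.13 (adjusted p = 8.76e-05). Zfp395 differed by -2.16 ± 0.24 (adjusted p = 1e-08). It had 17.3, 21.5 and 16.6 counts in KO and 69.6, 72.3 and 44.0 in WT PAMP RNA cells, and 422, 412 and 414 in KO and 196, 364 and 363 in WT mock cells. The 3 KO libraries were below the 3 WT libraries with PAMP RNA and above them in mock cells. Ddit4 differed by -1.37 ± 0.32 (adjusted p = 0.0031), Ankrd37 by -1.28 ± 0.35 (adjusted p = 0.0108) and Ero1l by -0.77 ± 0.18 (adjusted p = 0.00326). Ak4, Narf, a nuclear prelamin-binding protein, Mxi1, a repressor of the MYC network, Ndrg1 and Pdk1 completed the 11, between -0.68 and -0.41. The 2 higher were Pfkp at 0.45 ± 0.08 (adjusted p = 4.09e-05) and Hif1a at 0.23 ± 0.07 (adjusted p = 0.0206). The Hif1a call was lost under quantile normalization (0.06, adjusted p = 0.693) and with equal totals (0.12, adjusted p = 0.221). By limma it was also lost without WT PAMP RNA replicate 2 (0.18, adjusted p = 0.0982) or KO PAMP RNA replicate 1 (0.16, adjusted p = 0.114). The same held without KO mock replicate 3 (0.22, adjusted p = 0.0519). Pfkp was the only glycolysis enzyme of the 14 to be called, and their median was -0.14.

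Replicate 1 of WT mock cells at 6 h, in which members were low, entered each of these values. Without it 9 of the 13 members were called, 8 lower and 1 higher, and all 9 were among the 13. The 4 no longer called were Ankrd37 (-0.74, adjusted p = 0.0937), Hif1a (0.22, adjusted p = 0.052), Ndrg1 (-0.30, adjusted p = 0.0522) and Pdk1 (-0.27, adjusted p = 0.104). Egln3 stood at -1.65 (adjusted p = 2.27e-07) and Zfp395 at -1.86 (adjusted p = 4.81e-08) without it. Ddit4 moved most of those still called, to -0.70 (adjusted p = 0.00361), and Ero1l stood at -0.49 (adjusted p = 0.0266), Ak4 at -0.43 (adjusted p = 0.0479) and Mxi1 at -0.36 (adjusted p = 0.0185).

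The same difference was then taken apart by treatment. In PAMP RNA cells at 6 h KO was lower than WT for 17 members, against 10.3% of all genes, and higher for 3, against 13.7%. Egln3 was lower by -1.55 ± 0.19 (adjusted p = 1.74e-08), with 39.9, 37.2 and 58.2 counts in KO and 151, 134 and 113 in WT cells. Ero1l was lower by -0.69 ± 0.13 (adjusted p = 6.22e-05), Egln1 by -0.55 ± 0.09 (adjusted p = 1.5e-05) and Ndrg1 by -0.48 ± 0.10 (adjusted p = 0.000254). For these 4 all KO libraries lay below all WT libraries. Among the enzymes Aldoa, Gapdh, Gpi1, Pgk1 and Tpi1 were lower in KO cells, and Hk1 and Pfkp higher. The Hk1 call was lost under quantile normalization (0.15, adjusted p = 0.193) and with equal totals (0.15, adjusted p = 0.12). By limma it was also lost without replicate 1 of the WT (0.21, adjusted p = 0.072) or KO PAMP RNA cells (0.21, adjusted p = 0.0806). Hif1a was 0.15 ± 0.05 higher (adjusted p = 0.0195), with 8630, 7680 and 7296 counts in KO and 7459, 6557 and 7237 in WT cells, which overlapped. Under quantile normalization it was at -0.02. At 3 h 6 members were lower (9.41% of all genes) and 4 higher (12.7%) in KO PAMP RNA cells, Egln3 by -0.65 ± 0.19 (adjusted p = 0.00853) and Hk1 by 0.38 ± 0.08 (adjusted p = 0.000194) among them. The Egln3 call at 3 h was lost with edgeR (adjusted p = 0.371), with DESeq2 (adjusted p = 0.121) and without WT PAMP RNA replicate 2 (-0.56, adjusted p = 0.0577). At 1 h 2 were lower (5.3%) and 1 higher (3.85%).

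In mock cells 2 members at 3 h and 5 at 6 h were called between genotypes, against 10 and 20 in PAMP RNA cells, whereas at 1 h 5 were called in mock and 3 in PAMP RNA cells. At 1 h 4 of the mock calls were lower (7.28% of all genes) and 1 higher (4.34%) in KO cells. The 3 h libraries gave 1 lower (4.54%) and 1 higher (3.68%), and those of 6 h gave 1 lower (6.04%) and 4 higher (5%). The 4 higher at 6 h were Ankrd37, Zfp395, Mxi1 and Narf, and without replicate 1 of WT mock cells 2 members were called, both lower. Pfkfb3 was lower in KO cells in all 6 comparisons. At 6 h it had 1711, 1844 and 1799 counts in KO and 2642, 2412 and 2306 in WT PAMP RNA cells, and 1212, 1318 and 1314 in KO and 1480, 2008 and 1959 in WT mock cells. With PAMP RNA the difference at 6 h was -0.46 ± 0.07 (adjusted p = 2.01e-06), and -0.44 and -0.38 at the earlier times. Between mock cells it was -0.49 ± 0.07 (adjusted p = 8.31e-07) at 6 h, -0.53 in the 3 h libraries and -0.41 in those of 1 h. All KO libraries lay below all WT libraries in each of the 6. Pfkfb3 was not called in the difference of responses at any time.

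**Figure D4:**
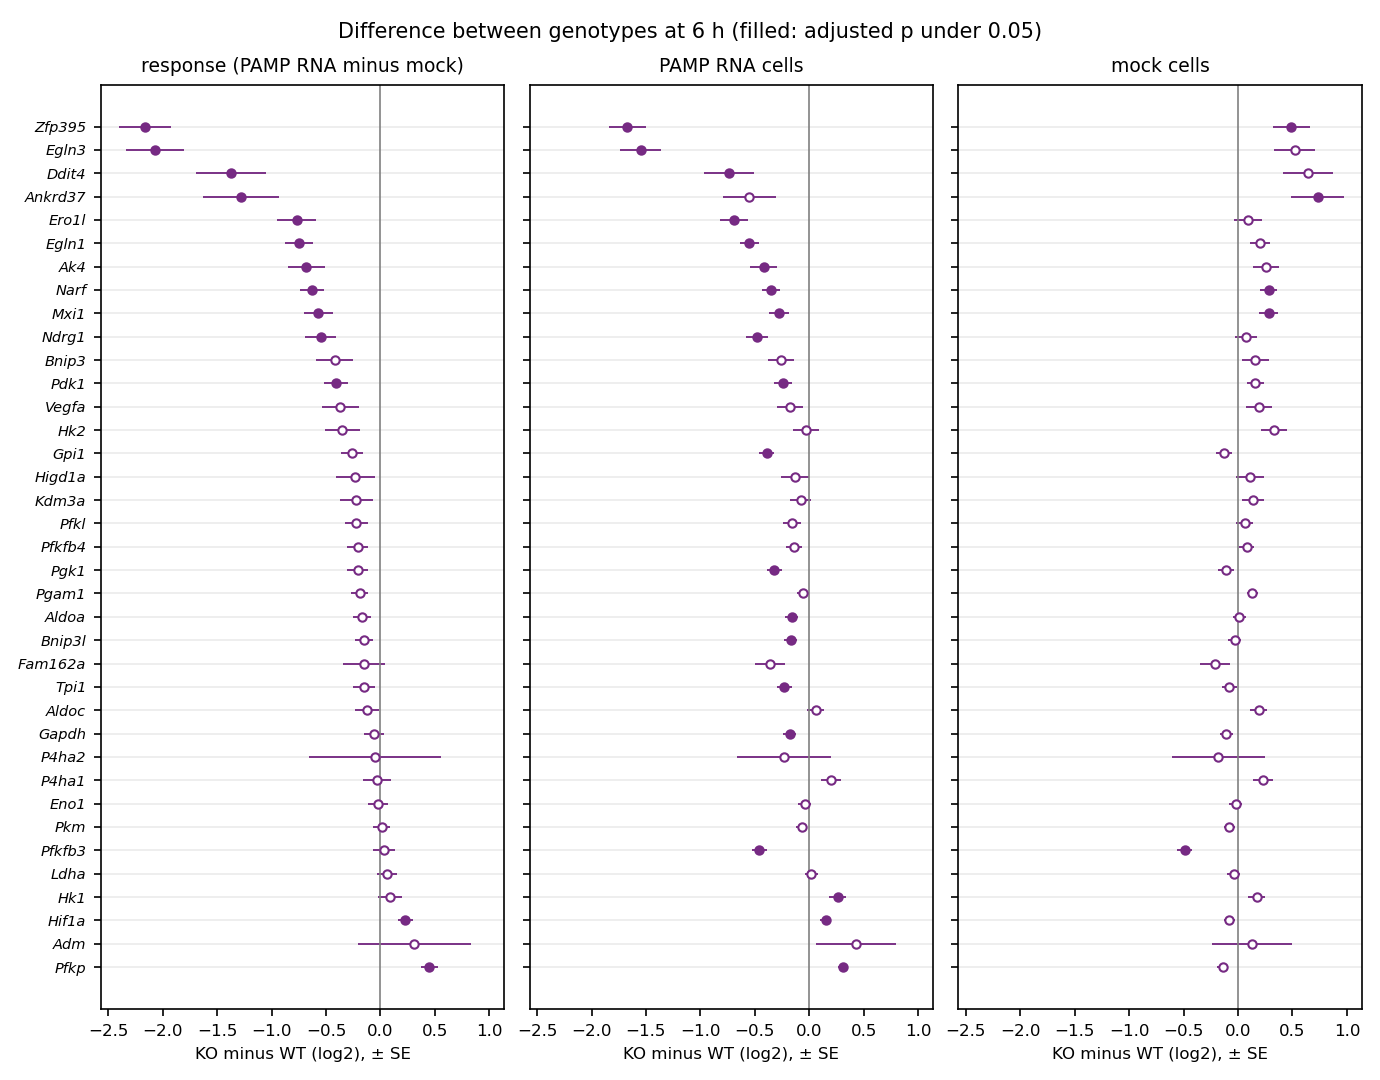
KO minus WT at 6 h for each member, for the response to PAMP RNA, for PAMP RNA cells and for mock cells, as log2 with bars for the SE; filled points passed an adjusted p under 0.05 by limma. Zfp395 and Egln3 lie below -1.5 in the response and in PAMP RNA cells, and Pfkfb3 lies at about the same place in PAMP RNA and mock cells.

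The members differed in how closely their group means followed those of Egln3. Over the 12 group means, on the log2 scale, 25 of the 36 other members had a Pearson r of at least 0.8, as did 4.2% of all genes tested, and 2 were below 0, Hif1a at -0.88 and Pfkp at -0.42. The points share libraries, size factors and the time course, the members were chosen with these levels in view, and the r is a description. The highest were Narf at 1.00, Ero1l at 0.98 and Egln1 at 0.96, and the lowest above 0 were P4ha1 at 0.35 and Pfkfb3 at 0.37. For 32 members the highest group mean was in mock cells at 6 h, as it was for 19.9% of all genes tested. P4ha1, Pfkfb3, Pfkp and Hif1a were highest in PAMP RNA cells at 6 h, and Ddit4 was highest in KO mock cells at 3 h. Among 1054 other genes, those whose normalized counts averaged 50 or more and whose group means spanned 2 or more log2 units, those most like Egln3 were Arrdc3 at 0.984, an arrestin-domain protein, Gys1 at 0.955, glycogen synthase, Selenbp1 at 0.945 and the histone demethylase Kdm5b at 0.928. Mean Arrdc3 counts at 1, 3 and 6 h were 161, 170 and 156 in KO PAMP RNA cells and 160, 779 and 1057 in KO mock cells. In WT cells they were 163, 236 and 270 with PAMP RNA and 158, 811 and 849 in mock cells.

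Other genes of the same pathways, none of them members, were counted by limma in the same comparisons. These lists too were chosen with earlier results of the data known, so their calls and p-values describe the listed genes and are no independent support. Some genes stand in more than 1 of these lists, such as Gys1 and Slc2a1. Fell and rose in these lists mean lower and higher with PAMP RNA than in mock cells of the same hour. Only for mock cells do they mean a change with time. Of 34 tested HIF targets outside the members, 22 fell and 6 rose with PAMP RNA at 3 h in KO cells (median -0.51), and 21 fell and 5 rose in WT cells (median -0.43), against 26.9% and 23.8% of all genes in KO and 22% and 19.6% in WT cells. In mock cells between 1 and 3 h 22 of them rose and 5 fell in each genotype, against 21% and 21.8% of all genes in KO and 21.3% and 22.2% in WT cells. At 3 h Hilpda, a lipid droplet protein, was lower with PAMP RNA by 2.13 ± 0.22 in KO (adjusted p = 7.79e-12) and by 1.90 ± 0.22 in WT cells (adjusted p = 3.17e-10). Plod2, a collagen lysyl hydroxylase, was higher by 1.96 ± 0.26 in KO and 1.78 ± 0.26 in WT cells. Nos2, the inducible nitric oxide synthase, rose at 6 h by 3.35 ± 0.30 in KO (adjusted p = 9.92e-14) and 1.91 ± 0.30 in WT cells (adjusted p = 3.56e-07).

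Of 12 tested transporters of glucose, lactate and pyruvate, 8 fell and 1 rose at 3 h in each genotype, where 26.9% of all genes fell and 23.8% rose in KO and 22% and 19.6% in WT cells. Slc2a1, the glucose transporter GLUT1, averaged 1466 counts with PAMP RNA and 3976 in mock KO cells, and 1426 with PAMP RNA and 3883 in mock WT cells. It was lower than in mock cells by 1.44 ± 0.12 in both (adjusted p = 6.64e-15 in KO and 1.01e-14 in WT). With PAMP RNA at 1 h its mean was lower still, 1032 in KO and 991 in WT cells. Slc16a3, the lactate exporter MCT4, was lower than in mock cells by 1.63 ± 0.08 in KO and 1.50 ± 0.08 in WT cells. With PAMP RNA its mean was 1158 at 1 h and 1336 at 3 h in KO cells, and 1101 and 1357 in WT cells. The single gene that rose was Slc2a6, a hexose transporter of lysosomes, by 1.26 ± 0.05 in KO and 1.22 ± 0.05 in WT cells. Of 13 tested glycogen genes 8 fell and 1 rose in KO and 7 fell and 1 rose in WT cells at 3 h, beside the same shares of all genes, with Gys1 falling by 2.13 ± 0.11 and 1.89 ± 0.11.

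Glycolysis paralogues outside the members were mixed at 6 h, 5 of 13 rising and 4 falling in KO and 4 rising and 4 falling in WT cells, against 35.1% and 36.5% of all genes in KO and 32.1% and 33.3% in WT cells. Hk3, a hexokinase of myeloid cells, rose by 1.97 ± 0.05 in KO and 1.38 ± 0.05 in WT cells, to a mean of 4129 counts with PAMP RNA against 1055 in mock KO cells and 2841 with PAMP RNA against 1091 in mock WT cells. Pdk2, a paralogue of Pdk1, fell by 2.37 ± 0.24 and 2.24 ± 0.24. The counts at 3 h that follow stand beside 26.9% of all genes falling and 23.8% rising in KO and 22% and 19.6% in WT cells. Of 21 tested genes of the tricarboxylic acid cycle and pyruvate dehydrogenase, 2 fell and 1 rose at 3 h in KO cells and 1 fell and 1 rose in WT cells. In the pentose phosphate pathway 1 of 9 rose and 1 fell in each genotype at 3 h. Of 13 regulators of mTORC1 and nutrient stress, 6 fell and 4 rose in KO and 6 fell and 3 rose in WT cells at 3 h, with Sesn1, a sestrin, falling by 1.60 ± 0.10 and 1.10 ± 0.10. Among 17 tested subunits, regulators and sensors of HIF, 6 fell and 4 rose in KO and 5 fell and 4 rose in WT cells at 3 h. The largest of these was Cited2, which competes with HIF-1α for its coactivator p300. Cited2 rose by 2.74 ± 0.08 in KO (adjusted p = 8.88e-33) and 2.32 ± 0.08 in WT cells (adjusted p = 1.15e-29). Its mean was 2831 counts with PAMP RNA and 424 in mock KO cells, and 1860 with PAMP RNA and 371 in mock WT cells.

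The difference of responses at 6 h was also called for some of these genes. Of the 34 other HIF targets the KO response, again as a signed log2 value, was lower for 10 and higher for 1, against 3.81% and 6.67% of all genes, with a median of -0.22. Without replicate 1 of WT mock cells 4 were lower and 3 higher, with a median of -0.06. Ppp1r3b, a glycogen-targeting phosphatase subunit, differed by -1.16 ± 0.28 (adjusted p = 0.00444), and by -0.55 (adjusted p = 0.00209) without that library. Gys1 differed by -0.72 ± 0.16 (adjusted p = 0.00215), and by -0.54 (adjusted p = 0.019) without it. Nos2 differed by 1.44 ± 0.43 (adjusted p = 0.0212), and by 1.80 (adjusted p = 0.00509) without it. Hk3 differed by 0.59 ± 0.08 (adjusted p = 3.96e-07) and Cited2 by 0.38 ± 0.11 (adjusted p = 0.0162), the single genes of their lists to be called. Of the mTORC1 and nutrient-stress list 4 were lower, and 3 without that library, among them Sesn2 at -0.59 ± 0.10 (adjusted p = 9.61e-05).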

How the data were processed

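RNA of 36 cultures was made into libraries with SMARTer and Nextera XT kits, which do not mark strand, and sequenced in single reads on an Illumina instrument, per the labels' protocols. The deposited table holds normalized counts, a signal in which the authors' reads per gene are divided by a size factor per library. The submitters' processing notes name TopHat, Cufflinks, DESeq2 and the build GRCm38; their versions and roles, and the annotation, were not given in the sources used. Whole reads were recovered for 100% of values (tolerance 0.01 reads), and each column was mapped to a library by its name. The 12 groups have 3 libraries each, which the labels call biological triplicates of plating; p-values measure the spread between these cultures.

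The main test was limma 3.58.1 (R 4.3.3) with a mean-variance trend on log2(normalized count + 1) and 1 mean per group, for genes with a mean of at least 10. P-values were adjusted by Benjamini-Hochberg over all 11853 genes and called under 0.05. The alternatives were edgeR 4.0.16 and DESeq2 1.42.0 on recovered reads, pseudocounts of 0.5 and 5, no filter and a filter at 50, quantile normalization, equal total reads, a replicate block and leaving out each library. The tests were checked on simulated data. Tables and figures used Python 3.11.15, numpy 2.4.6, pandas 2.3.3 and matplotlib 3.10.9.

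The members and the gene lists were chosen with earlier results of these data known. Values per library were given for 12 members picked by role and, after its values were seen, for Zfp395. In each comparison the members named were at most 6 with the largest differences in each direction, at a mean of at least 50, among those whose libraries did not overlap or, where tested, those called. Of each pathway list at most 4 genes with the largest values were named, and of other genes the 8 most like Egln3 were ranked. Some further members were named after their values were seen, to show a role or an exception.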

Additional observations from a re-analysis of the deposited data

Results flagged for a closer look

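The response to PAMP RNA at 6 h, PAMP RNA minus mock cells, differed between KO and WT cells by limma's test of the difference itself for 8 of the members described in detail. The KO minus WT difference was -2.16 for Zfp395, -2.07 for Egln3, -1.37 for Ddit4, -1.28 for Ankrd37, -0.77 for Ero1l and -0.75 for Egln1. It was 0.45 for Pfkp and 0.23 for Hif1a. The levels behind these calls were in view when the members were chosen, so the calls are no independent support for the choice. Replicate 1 of WT mock cells at 6 h, in which the members' median deviated by -0.26 from its group, enters all 8. Its part in them was measured by leaving it out, after which Ankrd37 (-0.74) and Hif1a (0.22) were no longer called and the other 6 were. The Hif1a call did not turn on that library alone. It was also lost without WT PAMP RNA replicate 2 (0.18), KO PAMP RNA replicate 1 (0.16) or KO mock replicate 3 (0.22) at 6 h.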

How the results depend on the processing

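The members' median differences at 3 and 6 h and in mock cells kept their direction under every alternative tried, while the KO median at 1 h (-0.02) was 0.01 with equal total reads. At 3 h the KO median (-0.72) was -1.05 under quantile normalization, -0.97 with equal total reads and -0.61 with a filter at 50, and the WT median (-0.67) was -0.87 and -0.85 under the first 2 of these. At 6 h the KO median (-0.84) was -1.36 and -1.32 and the WT median (-0.62) -1.04 and -0.99. The WT mock median between 1 and 3 h (0.91) was 0.72 with a filter at 50. These scalings moved all genes too, quantile normalization at most to -0.12. Single members reversed at 6 h. In WT cells Pfkfb3 was -0.01 under quantile normalization, and Pfkp was -0.15 under quantile normalization and -0.16 with equal totals. In KO cells Pfkfb3 was -0.01 and P4ha1 -0.02 with equal totals, and Hif1a in KO against WT PAMP RNA cells was -0.02 under quantile normalization. Counts of members called, KO against WT, also moved. For the response at 3 h (0) they were 1 with a filter at 50, 2 with equal totals and 1 with DESeq2, and at 6 h (13) 22 with equal totals, which left out Hif1a, as did quantile normalization. edgeR called the same 13 at 6 h, and DESeq2 11 of them, without Ankrd37 and Ddit4. In mock cells at 1 h (5) they were 3 without a filter, 3 with edgeR and 3 with DESeq2, and at 6 h (5) 2 without a filter and 3 with DESeq2. In PAMP RNA cells at 3 h (10) they were 5 without a filter, 17 with equal totals and 6 with DESeq2. The change of KO PAMP RNA cells from 1 to 3 h (17) gave 30 with equal totals. With equal totals the calls over all genes moved too. For the KO minus WT response at 3 h they went from 306 higher and 66 lower to 144 and 153. At 6 h they went from 791 and 452 to 380 and 1250. For KO against WT PAMP RNA cells at 3 h they went from 1505 and 1115 to 896 and 1833. For the change of KO PAMP RNA cells they went from 3353 and 3522 to 1952 and 6597. The cause of these moves was not tested.

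Leaving out each library in turn gave 0 to 1 members called for the KO minus WT response at 3 h and 9 to 17 at 6 h. It gave 2 to 4, 1 to 2 and 2 to 12 in mock cells at 1, 3 and 6 h, and 3 to 3, 4 to 10 and 13 to 23 in PAMP RNA cells. In PAMP RNA cells at 3 h the count (10) was 5 without KO replicate 3, 6 without WT replicate 1 and 4 without WT replicate 2, and at 6 h (20) 13 without WT replicate 2. In mock cells at 6 h (5) it was 2 without any 1 of the KO libraries or without WT replicate 1, 12 without WT replicate 2 and 11 without WT replicate 3. In mock cells at 1 h (5) it was 2 without replicate 2 and 3 without replicate 1 of either genotype, and at 3 h (2) it was 1 without KO replicate 2, KO replicate 3 or WT replicate 2. The changes within PAMP RNA cells gave 17 to 18 in KO and 15 to 17 in WT cells from 1 to 3 h, and 24 to 29 and 31 to 33 from 3 to 6 h. The medians ranged from -0.04 to -0.01 in KO and -0.10 to 0.00 in WT cells for the response at 1 h, from -0.76 to -0.66 and -0.70 to -0.64 at 3 h, and from -0.90 to -0.85 and -0.79 to -0.56 at 6 h. Those of mock cells ranged from 0.78 to 1.00 in KO and 0.85 to 0.96 in WT cells from 1 to 3 h, and from 0.49 to 0.55 and 0.37 to 0.61 from 3 to 6 h. Same-numbered libraries did not deviate together, with a median correlation of 0.002 (from -0.114 to 0.183) and 12 of 36 libraries closest to their own number. With the replicate number as a block 13 members were called for the KO minus WT response at 6 h, the same 13 as without it, and no call of a named member changed. Few reads limit Adm and P4ha2 at 1 h.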
